A study of Mus musculus with 9 samples.

Results

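Interferon regulatory factors (IRFs) are transcription factors that bind the interferon-stimulated response element, a DNA element found beside many interferon-induced genes. The 8 IRF genes Irf1, Irf2, Irf3, Irf4, Irf5, Irf7, Irf8 and Irf9 were taken by name from the 55471 genes counted, and all 8 passed the filter on low counts. The data are RNA sequencing counts of mouse CD8+ T cells that carry OT-I, a transgenic T cell receptor for an ovalbumin peptide. The control group (n = 4) was Bdh1-WT;shCtrl, with an intact Bdh1 gene and a short hairpin RNA against luciferase, a firefly enzyme. The other group (n = 5), called DKO, was Bdh1-KO;shOxct1, a Bdh1 knockout that received a hairpin against Oxct1. Both genes serve ketolysis, the use of ketone bodies as fuel. Cells of both groups were activated in culture through CD3 and CD28 with interleukin 2, transduced, sorted for the Ametrine reporter and transferred into C57BL/6 mice. The mice were infected with LmOVA, Listeria monocytogenes expressing ovalbumin, and the cells were sorted from the spleen on day 7. The labels do not give the age of the mice or how Bdh1 was deleted, and a hairpin lowers a transcript without deleting its gene. Nothing says that replicates came from separate mice, so p-values measure only the spread between these libraries.

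IRF1 and IRF2 bind the same element. IRF1 is induced by interferon gamma and mostly activates, and IRF2 is known for opposing it. IRF3, IRF5 and IRF7 are switched on by sensors of foreign nucleic acid, and IRF9 is the DNA-binding subunit of ISGF3, the complex that type I interferon activates. IRF4 and IRF8 bind weakly alone and pair with other factors. IRF4 with BATF is needed for the expansion of CD8+ T cells after strong receptor signals, and IRF8 is best known in myeloid, dendritic and B cells.

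Libraries held 45205993 to 59853080 counts in genes, and control replicates 1 and 3 lay apart from the other 7 libraries, on the first and second principal components of log2 CPM (counts scaled to library size). Both targeted transcripts were lower in DKO, without overlap. Oxct1 was at 59.2 to 71.5 CPM in control against 4.61 to 5.51 CPM in DKO, and Bdh1 at 25.1 to 35.1 against 8.98 to 11.6 CPM. Bdh1 reads thus remained in the libraries labelled as its knockout, and no deleted part was checked. All 10 CD8 T cell markers checked exceeded 1 CPM. The threshold was an adjusted p of 0.05 by edgeR's quasi-likelihood test. It was passed by 422 of all 14918 genes tested (2.83%), with 1.32% higher in DKO and 1.51% lower.

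None of the 8 IRF genes passed that threshold in edgeR. By unadjusted p under 0.05, 3 of the 8 differed (Irf4, Irf7 and Irf9), beside 16.0% of all genes tested. DESeq2's Wald test called 2 of the 8, Irf4 and Irf7, where it called 6.85% of all genes, and limma-voom called 1, Irf4, where it called 6.68%. In the unstranded count, control and DKO libraries did not overlap for Irf4 and Irf7, 2 of the 8. Of all genes tested, 8.71% did not overlap (4.62% higher in DKO and 4.09% lower). With the strand columns summed, the Irf7 groups overlapped. Estimates were lower in DKO for 6 genes and higher for 2, with a median log2 fold change of -0.13 against -0.01 over all genes, of which 51.4% were lower. The median size of the change, without its sign, was 0.23 for the 8 genes and 0.18 for all genes. With 8 genes these shares are too coarse to set the family apart from the background. The 8 genes were also chosen with earlier results of these data known, so their p-values and counts are not independent evidence.

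**Figure D1:**
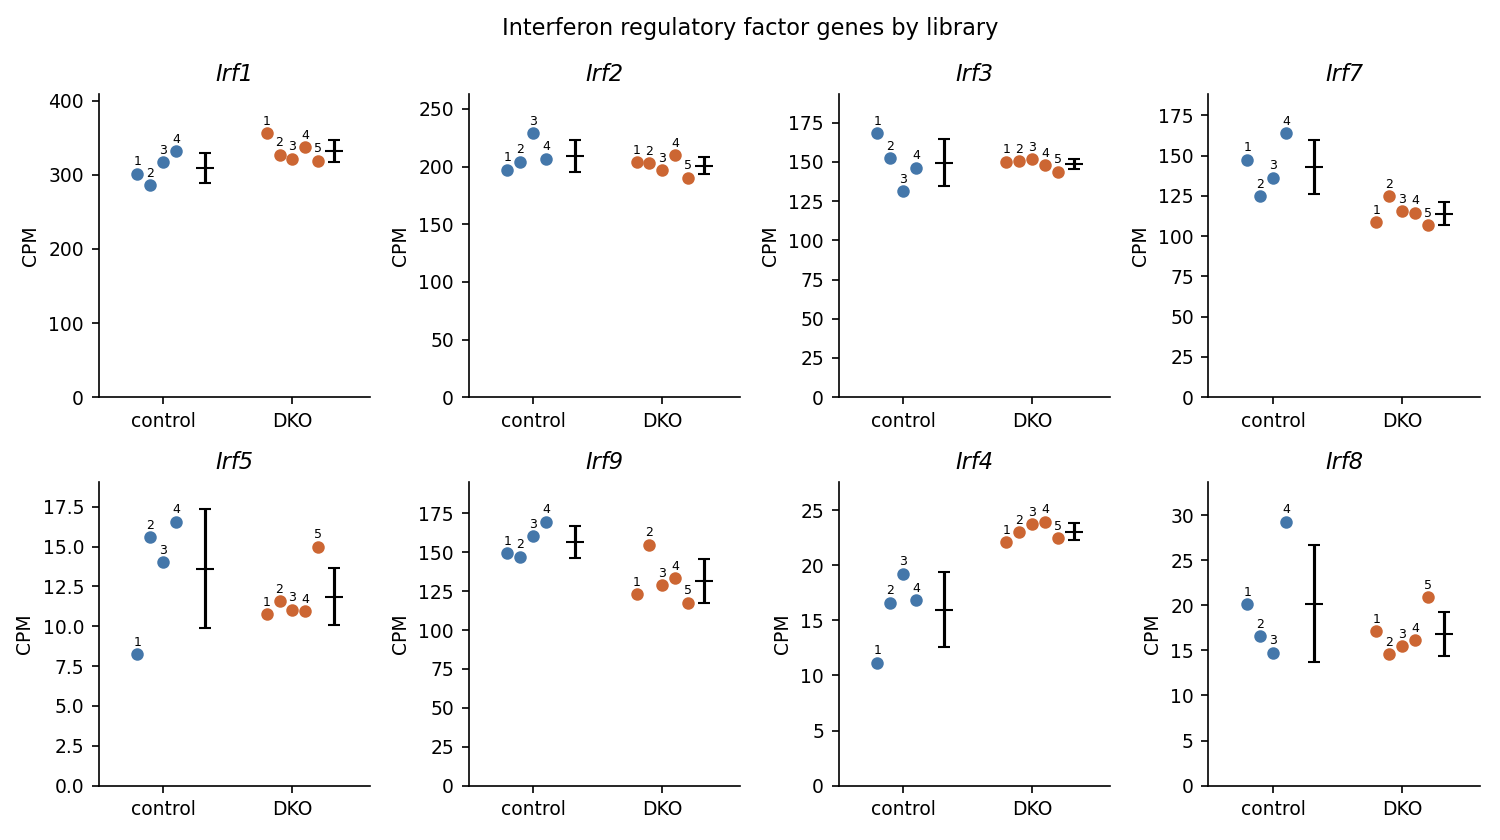
CPM of each IRF gene (vertical axes, from 0) in the 4 control libraries (blue) and the 5 DKO libraries (orange), numbered by replicate, with the group mean and SD as black bars. The groups separate for Irf4 and, by a hair, for Irf7, and overlap for the other 6 genes.

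The family's levels formed 2 tiers when counts were set per length of exons and scaled to the same sum in each library (TPM). Irf1 was the most abundant, at 261.0 ± 21.8 TPM (SD, n = 9), and held 33.4 to 40.2% of the summed TPM of the 8 genes. It was followed by Irf3 (139.3 ± 6.18 TPM), Irf7 (108.0 ± 14.8), Irf2 (89.1 ± 6.66) and Irf9 (85.2 ± 10.7). Irf5 (14.1 ± 3.24 TPM), Irf4 (13.1 ± 3.08) and Irf8 (8.34 ± 2.05) made up the lower tier. Among genes tested, Irf1 ranked 605 by mean TPM, Irf3 ranked 1323 and Irf8 ranked 8479.

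Irf1 lay above Irf3 and Irf9 above Irf5 in all 9 libraries with no overlap of their ranges. The other neighbours in this order overlapped. Irf3 exceeded Irf7 in 8 of 9 libraries, the exception being control replicate 4 (136.1 and 138.9 TPM). Irf2 exceeded Irf9 in 6 of 9. Irf9 shares 123 exon bases with Rnf31 on the same strand, and reads there are left out of its count, so the order of Irf2 and Irf9 is uncertain. Irf5 exceeded Irf4 in all 4 control libraries and in 1 of the 5 DKO libraries, replicate 5. That order rests on the unstranded count of Irf5, which leaves out reads shared with a gene on the other strand. With the strand columns summed the means were 36.2 TPM for Irf5 and 11.3 TPM for Irf4.

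**Figure D2:**
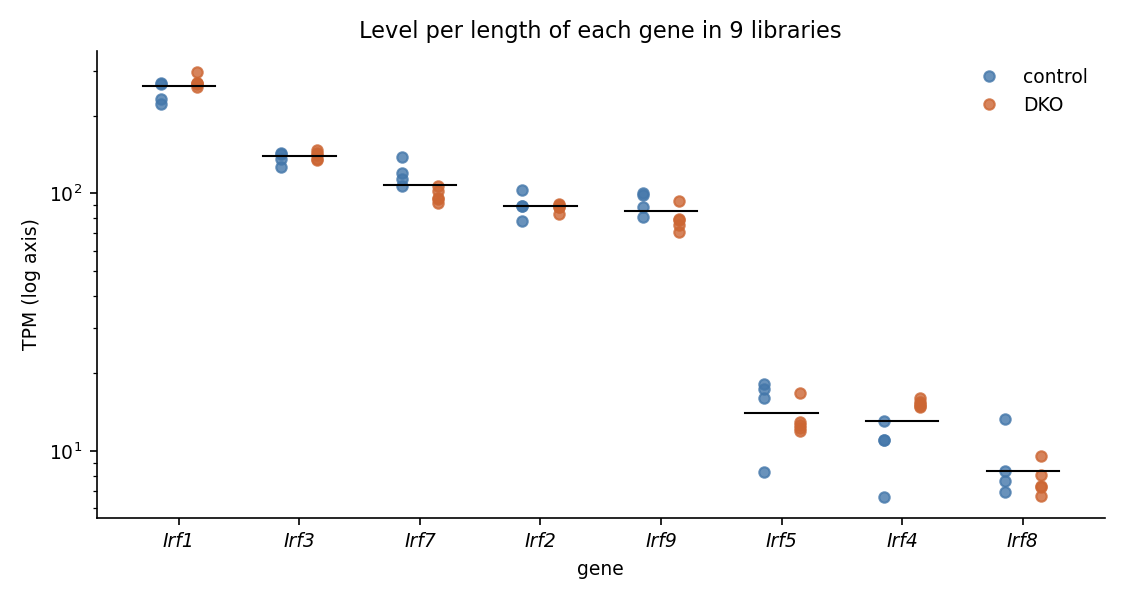
TPM of each IRF gene on a log axis, ordered by mean, in control (blue points) and DKO (orange points), with the mean of 9 libraries as a line. Irf1 to Irf9 lie between 70.7 and 296.3 TPM, and Irf5, Irf4 and Irf8 between 6.65 and 18.2 TPM.

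Irf4 (ENSMUSG00000021356.10, plus strand of chromosome 13, 30749226 to 30766976 in GRCm38) had the largest estimated difference of the family. Its CPM was 11.2, 16.6, 19.2 and 16.8 in control replicates 1 to 4, and 22.1, 23.0, 23.7, 23.9 and 22.5 in DKO replicates 1 to 5. Every DKO library lay above every control library, and control replicate 1 was the lowest. The group means were 16.0 ± 3.41 CPM (SD, n = 4) in control against 23.0 ± 0.791 CPM (SD, n = 5) in DKO, and the spread in control was 21.4% of the mean against 3.43% in DKO. The log2 fold change was 0.53 (SE 0.14, 95% interval 0.22 to 0.83), with an unadjusted p of 0.00275 and an adjusted p of 0.0752 in edgeR over all genes. DKO was thus at 144% of control, with an interval of 117 to 178%.

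The Irf4 call turned on single libraries and on the test. Without control replicate 1 the log2 fold change was 0.38 with an adjusted p of 0.0294 in edgeR, where 4.93% of all genes passed. Without control replicate 3 it was 0.63 with an adjusted p of 0.0473 (2.25% of all genes), and without both libraries 0.45 with 0.0288 (3.08%). The other 7 omissions gave an adjusted p between 0.123 and 0.164. It was 0.0102 in DESeq2, 0.0115 in limma-voom and 0.00458 with 1 surrogate variable in edgeR, which called 8.37% of all genes. In the other 12 alternatives none of the 8 genes passed, where 0.449 to 4.04% of all genes did.

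The genes with the profile most like that of Irf4 were Sf3a1, Cdc25b and Eif2s3x. They were the closest of 14917 by the root mean square difference of mean-centred log2 CPM over the 9 libraries, at 0.04, 0.07 and 0.09, where Irf4 itself varied by 0.34. Sf3a1 encodes a splicing factor subunit, Cdc25b a phosphatase that activates cyclin-dependent kinases, and Eif2s3x a subunit of the initiation factor eIF2. Their log2 fold changes were 0.53, 0.45 and 0.60, with adjusted p of 0.0659, 0.102 and 0.0497 in edgeR. Values near that of Irf4 follow from the choice by profile over the same libraries, and shared regulation was not tested.

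Irf8 (ENSMUSG00000041515.10, plus strand of chromosome 8, 120736358 to 120756694) was at 20.1, 16.6, 14.7 and 29.3 CPM in control replicates 1 to 4. In DKO replicates 1 to 5 it was at 17.1, 14.6, 15.4, 16.1 and 20.9 CPM. The groups overlapped, and control replicate 4 stood above all other libraries. The log2 fold change of -0.26 (95% interval -0.68 to 0.15, adjusted p 0.545 in edgeR) became -0.02 without that library.

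The log2 ratio of Irf4 to Irf8 in TPM was -0.32, 0.53, 0.91 and -0.27 in control and 0.89, 1.18, 1.14, 1.09 and 0.63 in DKO. The mean was 0.21 ± 0.61 (SD, n = 4) in control and 0.99 ± 0.23 (SD, n = 5) in DKO, and the ranges overlapped. Ratios of members are described with no test, since the members were chosen with results known.

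Markers of other cells known to express Irf4, Irf5 or Irf8 were summed in each library. Of 14 B cell markers 4 exceeded 1 CPM, their sum ranged from 192.2 to 277.0 CPM in control and 199.9 to 220.9 CPM in DKO, and Ighm made up most of it (208.7 and 188.3 CPM). Pax5 had 0 counts in every library, and Ebf1 and Fcer2a were each under 0.1 CPM. Of 12 myeloid markers 8 exceeded 1 CPM, summing to 164.5 to 198.6 CPM in control and 114.9 to 126.1 CPM in DKO (exact permutation test, two-sided, p 0.0159, the smallest possible, and adjusted p 0.0952). Of the 10 tested, Ctss and Cd68 passed in edgeR, both lower in DKO (beside 1.51% of all genes), and the list's median log2 fold change was -0.26. Ctss led the sum, S100a8 and S100a9 were under 0.1 CPM, and none of the list was at 0 in every library. Of 14 dendritic cell markers 9 exceeded 1 CPM, summing to 422.2 to 696.6 CPM in control and 478.4 to 551.2 CPM in DKO, most of it Itgax. Of the 10 tested, none passed in edgeR and 3 had an unadjusted p under 0.05, beside 16.0% of all genes. DESeq2 and limma-voom called 1 each, beside 6.85 and 6.68% of all genes. Of the same 10, 7 were higher in DKO (median log2 fold change 0.27), opposite to the sum. None was at 0 in every library, and Flt3, Clec9a, Cd209a and Siglech were under 0.1 CPM. The CD8 T cell sum, led by Gzma, ranged from 12784 to 17136 CPM in control and 11891 to 13956 CPM in DKO (exact permutation test, adjusted p 0.127), and 1 of the 10, Cd8b1, passed in edgeR, lower in DKO. The 4 CD4 T cell markers, led by Cd40lg, summed to 30.7 to 39.3 CPM in control and 34.6 to 46.6 CPM in DKO. The 8 erythroid and platelet markers, led by Ppbp, summed to 6.88 to 36.1 and 10.3 to 35.7 CPM. By the exact permutation test the adjusted p was 0.127 for the CD4 T cell sum, whose mean was higher in DKO. It was 0.905 for the erythroid and platelet sum, 0.476 for the B cell sum and 0.167 for the dendritic sum. Control replicate 4, the highest in Irf8, was also the highest in the B cell, myeloid and dendritic sums. DKO replicate 5 and control replicate 1 came next in Irf8, at 20.9 and 20.1 CPM. Their dendritic sums, 478.4 and 422.2 CPM, were the lowest of each group. In the myeloid sum they were at 119.6 and 164.5 CPM, and in the B cell sum at 220.9 and 230.7 CPM. The part of these lists in the Irf4, Irf5 and Irf8 values was not tested, nor was which cells the marker reads came from. In bulk RNA, fewer cells of a type and less RNA per cell cannot be told apart.

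Irf7 (ENSMUSG00000025498.15, minus strand of chromosome 7, 141262706 to 141266481), itself an interferon-induced gene, had the second largest estimate. It was at 147.4, 124.7, 136.3 and 163.9 CPM in control replicates 1 to 4, and at 108.6, 124.6, 115.6, 114.5 and 106.6 CPM in DKO replicates 1 to 5. The lowest control library lay above the highest DKO library by less than 0.1 CPM. With the strand columns summed the groups overlapped, at 115.1 CPM in control replicate 2 and 115.2 CPM in DKO replicate 2. DKO was at 79.7% of control (95% interval 69.4 to 91.5%), a log2 fold change of -0.33 (SE 0.09), with an unadjusted p of 0.00390 and an adjusted p of 0.0906 in edgeR. The adjusted p was 0.0178 in DESeq2, 0.0743 in limma-voom and 0.0337 with 1 surrogate variable in edgeR, and 0.0549 to 0.223 without each library in turn.

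Irf9 (ENSMUSG00000002325.15, plus strand of chromosome 14, 55603571 to 55610030) was at 149.4, 147.2, 160.4 and 169.7 CPM in control. In DKO replicates 1 to 5 it was at 122.9, 154.9, 128.9, 133.5 and 117.6 CPM. Only DKO replicate 2 reached the control range, and it was also the highest DKO library for Irf7. The log2 fold change was -0.25 (SE 0.09, 95% interval -0.45 to -0.05), with an unadjusted p of 0.0187 and an adjusted p of 0.202 in edgeR. No alternative brought Irf9 past the threshold, and its adjusted p reached 0.0721 at the lowest, with 1 surrogate variable.

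Irf3 (ENSMUSG00000003184.15, plus strand of chromosome 7, 44997648 to 45002848), which is made without induction in most cells, was at 168.4, 152.2, 131.5 and 146.4 CPM in control against 143.8 to 151.9 CPM in DKO (median 150.1). The DKO values all lay inside the control range. The log2 fold change was -0.01 (adjusted p 0.975 in edgeR), and its interval of -0.18 to 0.17 bounds DKO at 88.1 to 112% of control. The log2 ratio of Irf7 to Irf3 in TPM was -0.33, -0.42, -0.08 and 0.03 in control and -0.60, -0.40, -0.53, -0.50 and -0.57 in DKO, so control replicate 2 lay inside the DKO range.

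Irf5 (ENSMUSG00000029771.12, plus strand of chromosome 6, 29526625 to 29541871) was at 8.25, 15.6, 14.0 and 16.6 CPM in control, and at 10.8, 11.6, 11.0, 11.0 and 15.0 CPM in DKO. Control replicate 1 was the lowest of all libraries and DKO replicate 5 lay apart from the other DKO libraries. The log2 fold change was -0.20 (95% interval -0.62 to 0.22, adjusted p 0.664 in edgeR), and ranged from -0.39 without control replicate 1 (adjusted p 0.112) to -0.13 without control replicate 2 and -0.09 without control replicate 4. This value is uncertain. Irf5 shares 411 exon bases with Tnpo3 on the other strand, and reads there are left out of an unstranded count. With the strand columns summed, which gives shared reads to both genes, the Irf5 count was 3 times as large and the log2 fold change was -0.02.

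**Figure D3:**
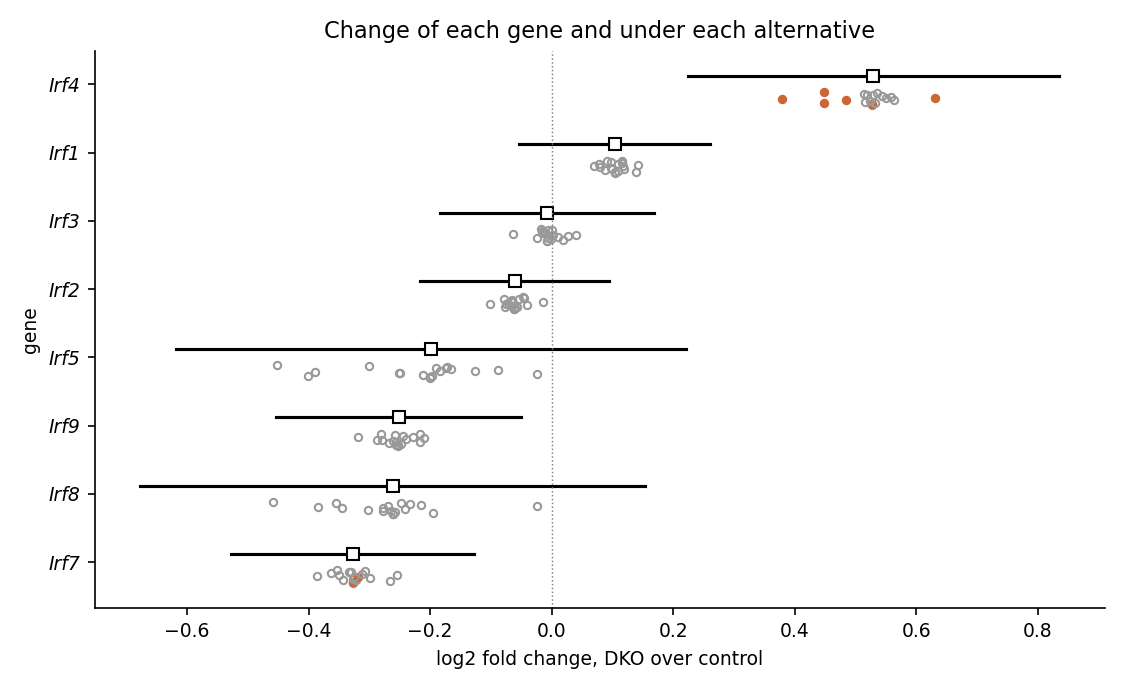
Log2 fold change of each IRF gene, DKO over control (horizontal axis), with its 95% interval (square and line, edgeR) and the value under each of 18 alternatives below it (circles). Orange circles mark an adjusted p under 0.05, found for Irf4 in 6 alternatives and Irf7 in 2, and every square is open because none passed.

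Irf1 (ENSMUSG00000018899.16, plus strand of chromosome 11, 53770014 to 53778374) was at 301.8, 286.0, 317.0 and 332.3 CPM in control. In DKO it was at 356.3, 327.3, 321.8, 337.6 and 319.0 CPM, overlapping the control range. Its log2 fold change was 0.10 (SE 0.07, 95% interval -0.05 to 0.26, adjusted p 0.525 in edgeR). Irf1 shares 135 exon bases with Gm17334 on the other strand, and its count was 1.39 times as large with the strand columns summed, so the level given here is uncertain.

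Irf2 (ENSMUSG00000031627.9, plus strand of chromosome 8, 46739732 to 46847458) was at 197.4, 204.3, 229.0 and 206.8 CPM in control against 190.3 to 209.7 CPM in DKO (median 202.8). Control replicate 3 was the highest, and the other values overlapped. Its log2 fold change was -0.06 (SE 0.07, 95% interval -0.22 to 0.10, adjusted p 0.726 in edgeR). The log2 ratio of Irf1 to Irf2 in TPM was 1.51, 1.38, 1.36 and 1.58 in control and 1.70, 1.59, 1.61, 1.58 and 1.64 in DKO. In the unstranded count the ranges met without overlapping, and the means of 1.46 and 1.62 correspond to linear ratios of 2.75 and 3.08. With the strand columns summed the ranges overlapped. Irf1 and Irf2 were then at 429.9 and 189.3 CPM in control replicate 4, and at 429.9 and 192.4 CPM in DKO replicate 4. The ratio also rests on the uncertain level of Irf1.

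Irf1 and Irf2 hold, just upstream of their start sites, DNA words known from interferon and NF-kappaB signalling. Windows of 250 bases before and 50 after each start site came from RefSeq (GRCm38.p6), and all 8 genes matched. Both strands were searched for the ISRE word (GAAA, any 2 bases, GAAA), the GAS word (TTCNNNGAA), known from interferon gamma signalling, and the kappaB consensus. Of 32851 windows, 3.44% held the ISRE word, 8.30% the GAS word and 8.46% the kappaB consensus. Of the 8 genes, 1 had an ISRE word (Irf2), 3 a GAS word (Irf1, Irf2 and Irf8) and 2 a kappaB match (Irf1 and Irf2). These count a gene if any of its windows matched, whereas the shares are per window. Irf1, Irf8 and Irf9 had more than 1 window, and another window of Irf1 and of Irf8 held no match. The sequences are shown for Irf1 and Irf2, the family's opposed pair, and for Ddx60 and Oas1a, ISGF3 targets that fell in DKO. Each runs 5′ to 3′ on the gene's strand and ends at the base before the start site, with matches in capitals.
Irf1, chr11:53769764-53770013, plus strand: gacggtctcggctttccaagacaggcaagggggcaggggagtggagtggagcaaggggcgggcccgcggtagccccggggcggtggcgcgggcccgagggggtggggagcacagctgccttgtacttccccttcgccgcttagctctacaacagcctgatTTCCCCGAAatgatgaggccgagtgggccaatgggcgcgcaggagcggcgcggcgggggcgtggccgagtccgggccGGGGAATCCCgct
Irf2, chr8:46739495-46739744, plus strand: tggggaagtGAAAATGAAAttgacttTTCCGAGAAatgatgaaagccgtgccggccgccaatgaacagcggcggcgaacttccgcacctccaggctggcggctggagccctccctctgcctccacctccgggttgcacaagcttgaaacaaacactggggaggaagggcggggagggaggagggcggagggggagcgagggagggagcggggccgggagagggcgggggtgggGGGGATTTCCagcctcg
Ddx60, chr8:61927987-61928086, plus strand: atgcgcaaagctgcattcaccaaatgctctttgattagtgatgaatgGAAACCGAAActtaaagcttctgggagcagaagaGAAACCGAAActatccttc
Oas1a, chr5:120907526-120907625, minus strand: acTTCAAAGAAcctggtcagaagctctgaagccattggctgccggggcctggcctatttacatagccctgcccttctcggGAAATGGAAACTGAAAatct

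In Irf1 the GAS word ran from -90 to -82 and the kappaB match from -13 to -4 relative to the start site. In Irf2 the ISRE word ran from -241 to -232, the GAS word from -224 to -216 and the kappaB match from -17 to -8. Ddx60 held 2 ISRE words, and Oas1a held 2 that overlap and a GAS word. A match is a run of letters and was not tested as a binding site.

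Genes upstream and downstream of the factors were taken from 6 lists of 129 genes in all, of which 121 were tested and 6 passed the threshold. All 6 are known targets of ISGF3, and all 6 fell in DKO. They were 6 of 31 ISGF3 targets tested, Ddx60, Oas1a, Usp18, Rsad2 and Rtp4 among them, beside 1.51% of all genes called lower, and the list's median log2 fold change was -0.14 against -0.01 over all genes. Lower levels of such genes in these libraries were known when the list was chosen, so its count is not independent evidence. The other 25 did not pass.

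Usp18, which restrains the type I interferon receptor and is also on the list of interferon receptor signalling, was at 18.0 to 19.2 CPM in control against 8.82 to 14.6 CPM in DKO (log2 fold change -0.77 with SE 0.15 and adjusted p 0.0218 in edgeR). It lost the threshold without control replicate 4 or DKO replicates 1, 3 or 5 (adjusted p 0.0542 to 0.0648), and its count was 1.20 times as large with the strand columns summed, so its value is uncertain.

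Ddx60, an RNA helicase of antiviral defence, was at 9.47, 7.27, 11.0 and 12.7 CPM in control against 4.61, 5.10, 4.94, 4.46 and 3.58 CPM in DKO. The estimate was -1.16 on the log2 scale (SE 0.18, adjusted p 0.00648 in edgeR). Oas1a, which makes the signal for an RNA-degrading enzyme, was at 12.1, 8.29, 12.5 and 11.9 CPM in control against 5.22, 5.50, 3.03, 5.90 and 4.97 CPM in DKO, an estimate of -1.18 on the log2 scale (SE 0.20, adjusted p 0.0108 in edgeR). Neither gene's groups overlapped, beside 4.09% of all genes tested that were lower in DKO without overlap. Both were named for their small p, so this separation is not independent evidence. Both kept the threshold without each library. Rsad2, the antiviral enzyme viperin, was at 4.26 to 7.65 CPM in control against 1.52 to 3.41 CPM in DKO (adjusted p 0.0343 in edgeR). Rtp4, an interferon-induced chaperone of G protein-coupled receptors, was at 13.9 to 26.4 against 5.88 to 11.3 CPM (adjusted p 0.0352 in edgeR). Leaving out control replicate 3 or 4, or DKO replicate 1, 3 or 5, ended both calls, and leaving out DKO replicate 2 ended that of Rsad2 (adjusted p 0.0566 to 0.0940).

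Without control replicate 4, or DKO replicates 1, 3 or 5, 3 of the ISGF3 targets passed, and without control replicates 1 and 3 together 4 passed. The myeloid sum of 164.5 to 198.6 CPM in control and 114.9 to 126.1 CPM in DKO moved in the same direction, as did Ctss and Cd68, and its part in the ISGF3 targets was not tested. Of the 6 targets that fell, 3 had a RefSeq window and all 3 held the ISRE word. Of the other 25 tested, 19 had a window and 8 of them held it.

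Of 15 genes of interferon receptor signalling, 2 passed in edgeR, both lower and both also ISGF3 targets, Usp18 among them, 5 had an unadjusted p under 0.05, and DESeq2 called 2 and limma-voom 4 (median 0.12, 8 higher and 7 lower). The other 4 lists had no call in edgeR. Their counts, and those of interferon receptor signalling, stand beside 16.0% of all genes with an unadjusted p under 0.05. Of all genes, edgeR called 2.83%, DESeq2 6.85% and limma-voom 6.68%. Of 17 adaptors, sensors and kinases upstream of IRF3, IRF5 and IRF7, 0 passed and 1 had an unadjusted p under 0.05. DESeq2 called 1 of them and limma-voom 0 (median 0.02, 10 higher and 7 lower). The kinase genes Tbk1 and Irak1 had the highest CPM of the list. Tbk1 was at 162.8 ± 13.2 CPM in control against 169.5 ± 3.60 CPM in DKO, and Irak1 at 183.6 ± 29.5 against 183.6 ± 16.2 CPM (SD, n = 4 and 5, here and below). Of 21 partners and corepressors, 0 passed, 5 had an unadjusted p under 0.05, and DESeq2 and limma-voom called 2 each. The list's median log2 fold change was 0.14 (16 higher in DKO and 5 lower), and Ets1 and Ikzf3 had its highest CPM. Ets1 was at 1980 ± 470.4 against 1983 ± 84.9 CPM, and Ikzf3 at 520.2 ± 74.0 against 519.3 ± 28.2 CPM. Both encode lymphoid transcription factors.

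Of 25 IRF1 targets, 0 passed in edgeR, 6 had an unadjusted p under 0.05, and DESeq2 and limma-voom called 2 each (median -0.07). B2m, the light chain of MHC class I, was at 5085 ± 862.5 CPM in control against 4278 ± 441.0 CPM in DKO (adjusted p 0.310 in edgeR). Tapbp, which helps load peptides, was at 539.7 ± 27.1 against 554.7 ± 22.7 CPM (adjusted p 0.819 in edgeR), and its count was 1.28 times as large with the strand columns summed, which leaves its level uncertain. Of 19 IRF4 targets in T cells, 0 passed in edgeR, 7 had an unadjusted p under 0.05, and DESeq2 and limma-voom called 1 each (median 0.09). Id2, a regulator of effector cells, was at 2593 ± 435.2 CPM in control against 2029 ± 242.7 CPM in DKO (adjusted p 0.159 in edgeR). Gzmb, the cytotoxic protease granzyme B, was at 1133 ± 79.9 against 1170 ± 246.0 CPM (adjusted p 0.898 in edgeR).

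**Figure D4:**
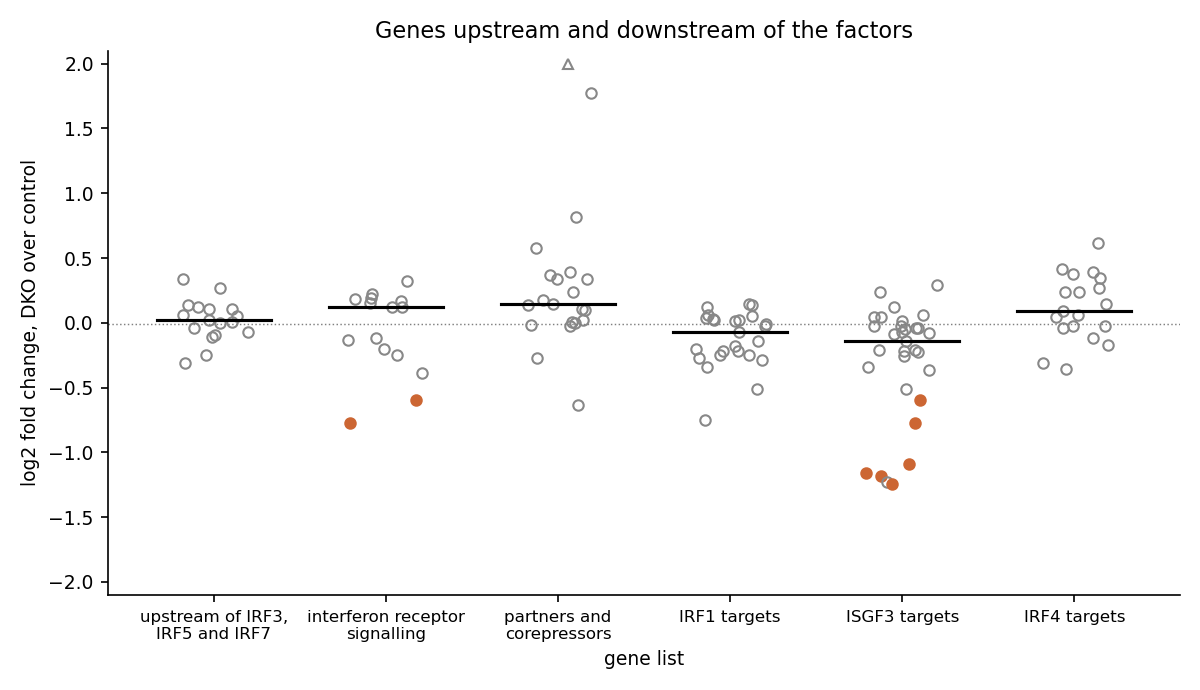
Log2 fold change (vertical axis) of each tested gene of the 6 lists, DKO over control, with the list median as a black line and the median of all genes as a dotted line. Orange points passed the threshold: 2 in interferon receptor signalling and 6 in the ISGF3 targets, all below 0, and 1 gene above 2 is drawn at the upper edge as a triangle.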

How the data were processed

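The deposited files hold raw whole-number counts of reads per gene, laid out as STAR writes its gene counts. Trim Galore 0.6.0, STAR 2.7.8a and mm10 are named in the submitters' processing notes, and no annotation is named in the labels. The unstranded column was used, since the strand columns were equal in size (49.9 to 50.1% in the first). Of 55471 gene identifiers, 55230 matched GENCODE M21 without version, which gave symbols, coordinates and exon lengths. Reads that name no gene were left out: 10.3 to 16.7% of reads were unmapped, 5.80 to 6.79% mapped to several places, 4.01 to 5.20% lay outside features and 4.97 to 5.31% were ambiguous. No pair of libraries within a group was a duplicate by a chi-square test of counts.

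DKO was compared with control in edgeR 4.0.16 under R 4.3.3 (quasi-likelihood test with robust estimation, TMM scaling, filterByExpr with a minimum count of 10), with Benjamini-Hochberg adjustment over 14918 genes. SE and 95% intervals follow from the F statistic. CPM are TMM-scaled, and log2 CPM used a prior count of 2. Alternatives were DESeq2 1.42.0 (size factors in edgeR, and its Wald test), limma-voom 3.58.1 with quality weights, no filter, a filter of 1 CPM in 4 libraries, summed strand columns, 1 surrogate variable (sva 3.50.0), a replicate block and leaving out each library. Leaving out control replicates 1 and 3 together, and TPM from summed strand columns, were added after seeing the data.

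The fits were tested on simulated data made from these libraries. A larger share of calls there was false in DESeq2's Wald test than in edgeR or limma-voom. The IRF genes and all lists were chosen with earlier results of these data known. Named genes were the 8 members, both targeted genes, up to 4 genes per list past the threshold with the smallest p (else the 2 with the highest CPM), the leading gene of each marker list, and the 3 genes most like the member with the largest change. Rsad2, Rtp4, Cd68 and Cd8b1 lie outside this rule and were named after their values were seen. The same holds for the markers given as under 0.1 CPM. Naming defining markers at 0 was planned. Some genes that the rule names are left out here. Ratios of members, planned with a permutation test, are given without one. Marker sums were compared with exact permutation tests over 126 relabellings in scipy 1.17.1, adjusted over 6 lists.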

Additional observations from a re-analysis of the deposited data

Results flagged for a closer look

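Irf5 in DKO replicate 5 was at 15.0 CPM, where the other 4 DKO libraries ranged from 10.8 to 11.6 CPM. With the strand columns summed it was at 35.9 CPM against 32.7 to 35.8 CPM, and no longer stood apart. In the unstranded count its gap to the nearest library was 0.812 of the group's range, above the critical value for 5 samples. Of 38 groups of values looked at in this way this was the only one, and chance alone puts about 1 in 20 groups past that value.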

How the results depend on the processing

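The number of IRF genes past the threshold was 0 in edgeR and 2 in DESeq2's Wald test, 1 in limma-voom, 2 with 1 surrogate variable, 0 to 1 without each library in turn, and 1 without control replicates 1 and 3 together. List genes past the threshold, 6 in edgeR, numbered 13 in DESeq2, 16 in limma-voom, 18 with 1 surrogate variable and 3 to 12 without each library, with 12 without control replicate 1 and 3 without control replicate 4 or DKO replicates 1 or 3. The 6 ISGF3 targets numbered 3 to 7 without each library, with 3 without control replicate 4 or DKO replicates 1, 3 or 5.

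Replicate numbers did not pair the libraries: deviations of same-numbered libraries correlated at -0.12 to 0.01, and 0 of 4 control libraries correlated best with their own number. With the replicate block, in which DKO replicate 5 carries no weight, 0 list genes, 0 ISGF3 targets and 0 IRF genes passed, and all genes called numbered 67 against 422. All genes called also numbered 357 with no filter, 1021 in DESeq2, 996 in limma-voom, 1248 with 1 surrogate variable and 179 to 749 without each library.

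With the strand columns summed, mean TPM was 311.3 for Irf1, 128.3 for Irf3, 93.1 for Irf7, 76.3 for Irf2, 73.0 for Irf9 and 36.2 for Irf5, in the same order. Signs near 0 turned. The log2 fold change of Irf3 was 0.019 in limma-voom, 0.0099 with the block, 0.027 with 1 surrogate variable and -0.064 to 0.041 without each library. Ets1 was at -0.13 in limma-voom, -0.011 with the stricter filter, -0.00082 with strand columns summed, -0.049 with 1 surrogate variable, -0.19 without control replicates 1 and 3 and -0.17 to 0.067 without each library. Gzmb was at -0.027 in limma-voom, -0.092 with the block, -0.028 without both control libraries and -0.096 to 0.094 without each. Irak1 was at 0.0031 with no filter, 0.0097 with the block and -0.10 to 0.094 without each library, Ikzf3 at 0.00046 with no filter and -0.11 to 0.056, and Tbk1 at -0.0044 to 0.092 without each library. The DKO minus control difference of the erythroid and platelet sum was -3.58 to 6.17 CPM without each library. The cause of these shifts was not tested. The lowest count of any of the 8 genes in a library was 400, and depth itself was not varied.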
